A study of Homo sapiens with 6 samples.

Results

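The genes described here are 9 steroid receptor, luminal and apocrine genes of breast epithelium: ESR1, PGR, GREB1, TFF1, TFF3, XBP1, SPDEF, AGR2 and PIP. They were chosen by name, and each was found once among the 54644 gene rows of the RNA-seq tables. The RNA came from SKBR3, an established line of HER2-positive breast adenocarcinoma, in 2 groups of 3 libraries described as biological replicates. The control (CON) carried the empty lentiviral vector pLVX, and the other group (CTTN) carried pLVX-CTTN, which encodes cortactin, an actin-binding protein. Both lines were made by lentiviral infection and stable selection with puromycin. Neither the promoter that drives the transgene, nor whether a line came from 1 clone or 1 infection, is given in the sources used here, and the extraction note speaks of tumors as well as of stable cells. The comparison asks how the RNA of each gene differs between cells with and without added cortactin.

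The estrogen receptor, encoded by ESR1, binds its hormone and then switches on target genes, among which the progesterone receptor gene PGR, GREB1 and the secreted trefoil peptide TFF1 are the classical readouts in hormone-responsive breast cancer. XBP1 and SPDEF are transcription factors of luminal and secretory epithelium, AGR2 is a protein disulfide isomerase of the endoplasmic reticulum that helps to fold secreted mucins, and TFF3 is a further trefoil peptide. PIP, the prolactin-induced protein, is a secreted marker of apocrine differentiation that responds to androgen. SKBR3 cells are classed as estrogen receptor negative and HER2 positive.

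XBP1 RNA has a sequence feature that bears on its transcripts. The stress sensor IRE1 removes a short intron from the cytoplasmic XBP1 mRNA, and only the spliced message encodes the strong activator. The intron is 26 bases long. It was located from the annotated exons of transcripts ENST00000216037, which holds it, and ENST00000344347, which lacks it. Its joined flanks were found in the reference sequence of the second. It lies at bases 566 to 591 of the first, although repeated letters at its ends allow 7 equivalent placements in all. It is shown in capitals with 30 bases of coding sequence on each side, because the transcript shares given further on turn on it:
XBP1 intron: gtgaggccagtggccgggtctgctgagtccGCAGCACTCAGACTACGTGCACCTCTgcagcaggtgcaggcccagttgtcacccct

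RefSeq promoter windows (GRCh38.p14) were matched for 6 of the 9 genes. TFF1, TFF3 and GREB1 had no window and were not searched for motifs. The 250 bases before the start site are shown for SPDEF, whose CTTN libraries all lay above the controls, for PIP, whose CTTN libraries all lay below them, and for AGR2, whose counts followed those of PIP most closely among the 7 genes with enough counts to be tested. The windows are chr6:34556330-34556579 (minus strand) for SPDEF, chr7:16805000-16805249 (minus strand) for AGR2 and chr7:143131827-143132076 (plus strand) for PIP. Capitals mark matches to the motifs searched, on either strand:
SPDEF: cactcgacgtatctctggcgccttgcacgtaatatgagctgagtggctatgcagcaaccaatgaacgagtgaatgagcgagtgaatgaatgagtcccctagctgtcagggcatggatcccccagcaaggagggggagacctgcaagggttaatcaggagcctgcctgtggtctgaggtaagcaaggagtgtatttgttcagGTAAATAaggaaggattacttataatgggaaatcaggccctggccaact
AGR2: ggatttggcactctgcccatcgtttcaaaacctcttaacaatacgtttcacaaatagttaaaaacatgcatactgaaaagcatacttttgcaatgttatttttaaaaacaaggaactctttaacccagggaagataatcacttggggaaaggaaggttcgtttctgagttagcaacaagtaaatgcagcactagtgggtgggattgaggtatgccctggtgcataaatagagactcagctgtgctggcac
PIP: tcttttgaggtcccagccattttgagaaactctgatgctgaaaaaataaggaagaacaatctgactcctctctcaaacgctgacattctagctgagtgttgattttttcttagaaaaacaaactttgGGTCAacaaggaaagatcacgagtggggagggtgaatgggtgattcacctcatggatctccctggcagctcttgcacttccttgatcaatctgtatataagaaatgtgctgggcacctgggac

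The motifs searched on both strands were the estrogen response element (GGTCA and TGACC with 3 bases of any kind between them), its single arm GGTCA, which every full element also holds, the androgen response element (AGAACA and TGTTCT with 3 bases of any kind between them), and 2 forkhead motifs, TGTTTAC and TATTTAC. The SPDEF window held TATTTAC on the strand opposite to the gene at −49 to −43 from the start, a match found in 2.40% of 35116 promoter windows of this length. The PIP window held a single GGTCA arm on the strand of the gene at −123 to −119, which 32.7% of all windows share, and windows of ESR1, PGR and XBP1 held it too. No window of the 6 genes held the full estrogen response element, found in 0.0399% of all windows, or the androgen response element, found in 0.00285%. The other forkhead form, present in 2.98% of all windows, was not matched in them either. The AGR2 window held none of these letters.

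The libraries held 35695300 to 39318400 scaled fragments each, and CPM is used below for counts scaled to a common library size. CTTN RNA, the check of the labels, was 107 ± 2.31 FPKM (fragments per kilobase of transcript per library size; SD, n = 3) in CON and 257 ± 74.7 in CTTN, a log2 fold change of 1.35 (SE 0.22, edgeR quasi-likelihood adjusted p = 0.0249). In the alternative settings given at the end, CTTN passed in 9 of 15, with log2 values from 1.10 to 1.57 and adjusted p of up to 0.154. The 3 CTTN libraries differed among themselves far more than the controls did, with a biological coefficient of variation of 0.2 within CTTN against 0.042 within CON. CTTN library 2 lay nearest to the controls and CTTN library 3 farthest from them on the leading axis of variation. The share of counts in genes whose main transcript is shorter than 1000 bases was 9.71% to 10.5% in CON, and 12.5%, 10.01% and 16.0% in CTTN libraries 1, 2 and 3. The median log2 fold change was 0.38 over 1570 tested genes of that length, 0.05 over 10078 genes between 1000 and 5000 bases and −0.30 over 2785 genes of 5000 bases or more. The part of this length trend in the results below was not tested.

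Of the 9 genes, 7 had enough counts to be tested, and 1 of them, TFF1, passed an adjusted p of 0.05. In bulk RNA of this kind, fewer cells with a transcript and less of it per cell cannot be told apart. In the whole fit 606 of 14433 genes passed, 2.29% of those tested being higher and 1.91% lower in CTTN, and 3.2% passed and changed at least 1.5-fold. The number called depended on the libraries used, and ran from 15 to 6953 with 1 library left out. Of the 7 tested genes, 4 had an unadjusted p under 0.05, beside 30.2% of all genes tested. All 3 CTTN libraries lay above all 3 controls for TFF1 and SPDEF, as for 19.3% of all genes, and below them for PIP, as for 19.4% of all genes. Fold changes were above 0 for 4 of the 7 genes and below 0 for 3, with a median log2 value of 0.15 against 0.011 over all genes tested.

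**Figure D1:**
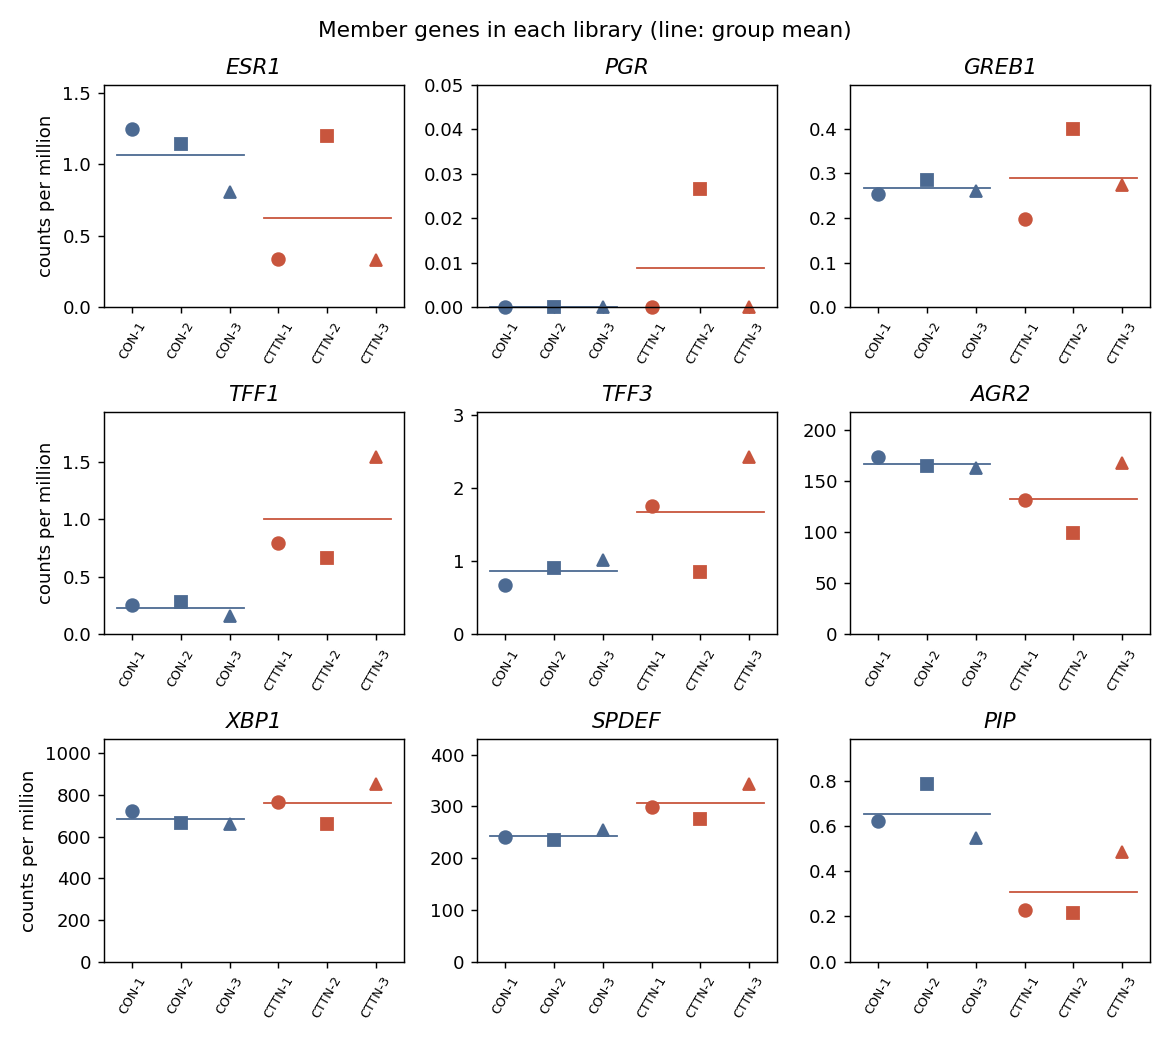
CPM (vertical axes, each from 0) of the 9 genes in the 3 CON libraries (blue) and the 3 CTTN libraries (red); horizontal lines are group means. The CTTN points lie above every CON point for TFF1 and SPDEF and below every CON point for PIP, and PGR is at 0 in 5 of 6 libraries.

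Per unit of transcript length, the genes fell into an abundant and a scarce set. In CON, XBP1 led with 398 ± 18.2 FPKM (SD, n = 3), rank 188 of 23867 genes detected there. SPDEF at 136 ± 2.64 FPKM and AGR2 at 135 ± 6.59 FPKM came next and did not differ beyond their spread. PIP followed at 1.76 ± 0.319 FPKM, and TFF3 at 1.32 ± 0.263 FPKM overlapped with it. TFF1 at 0.655 ± 0.191 FPKM lay below all TFF3 values and above all those of GREB1, which stood at 0.214 ± 0.133 FPKM. The ESR1 transcripts summed to 0.177 ± 0.0428 FPKM and overlapped with GREB1, and PGR was at 0.

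In CTTN, SPDEF and AGR2 no longer overlapped and PIP stood under both trefoil genes. SPDEF at 176 ± 31.0 FPKM lay above AGR2 at 97.6 ± 11.5 FPKM in every library. TFF1 at 2.85 ± 1.29 FPKM and TFF3 at 2.86 ± 1.41 FPKM overlapped each other, while PIP stood at 0.806 ± 0.357 FPKM, below every TFF1 and TFF3 value. XBP1 was again first at 437 ± 44.2 FPKM, and GREB1 at 0.208 ± 0.116 FPKM overlapped with the ESR1 transcripts at 0.103 ± 0.0930 FPKM at the lower end.

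ESR1, the estrogen receptor alpha gene (GRCh38, chr6:151656691-152637801), was scarce in both groups. Its row also carries the name AL078582.1, an overlapping locus. In the estimates per transcript, the ESR1 transcripts took 43.3, 40.2 and 25.9 of the counts in CON libraries 1 to 3 and 10.4, 42.0 and 11.1 in CTTN libraries 1 to 3, and AL078582.1 took 1.11 to 3.83. In FPKM, AL078582.1 made up 0.179 ± 0.0800 of the 0.356 FPKM of the row in CON (SD, n = 3). The counts of the whole row, which the fit used, were 45.4, 41.9 and 29.7 in CON libraries 1 to 3 and 12.4, 43.97 and 12.2 in CTTN libraries 1 to 3. CTTN library 2 lay within the controls, whereas the other two lay well under them, so the groups overlapped. The log2 fold change was −0.78 (SE 0.51, adjusted p = 0.2997 by edgeR). Without CTTN library 2 it was −1.69 with adjusted p = 0.00483, in a fit that called 47.2% of all genes tested. Without CTTN library 1 or 3 it was −0.48, with adjusted p of 0.580 and 0.510. The main ESR1 transcript is 6357 bases long, and both CTTN libraries with low counts were those with the larger share of short-gene counts.

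Within ESR1, 1 group of transcripts with a common start site (TSS107502) took 73.6 ± 5.88% of the count in CON and 81.3 ± 10.4% in CTTN (SD, n = 3). A second group (TSS107506) took 26.1 ± 5.76% and 13.4 ± 15.4%. These shares divide at most 43.3 counts and their spreads overlap.

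PGR, the progesterone receptor gene (chr11:101029624-101209591), had no fragment in 5 libraries and 1 fragment in CTTN library 2. In CON 3 counts over the group correspond to 0.0277 CPM, the limit that a count of 0 allows, and such a limit covers counting error only. The single fragment in CTTN library 2 amounted to 0.0266 CPM. No fold change was computed for PGR.

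GREB1, an estrogen-induced coactivator of the receptor (chr2:11482341-11642788), gave 9, 12 and 10 fragments in CON and 7, 15 and 9 in CTTN before scaling. The groups overlapped, and GREB1 did not pass the filter on low counts. Fitted without that filter, its log2 fold change was 0.13 (SE 0.42, edgeR adjusted p = 0.875). No difference in GREB1 was detected.

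TFF1, a secreted peptide of mucosal surfaces and a direct estrogen receptor target (chr21:42362282-42366594), rose in CTTN. It had 9, 12 and 6 fragments in CON and 28, 25 and 51 in CTTN before scaling, or 0.255, 0.286 and 0.156 against 0.791, 0.665 and 1.55 CPM. Every CTTN library exceeded every control, and CTTN library 3 was the highest. The fold change was 4.35, or 2.12 on the log2 scale (SE 0.44, edgeR adjusted p = 0.0467), and TFF1 stood at place 544 by p of the 606 genes called. The single annotated transcript, ENST00000291527, is 551 bases long, in the length class whose median was 0.38.

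The call of TFF1 was near the threshold. Leaving out CON library 1, 2 or 3 or CTTN library 1 ended it, with log2 values of 2.17, 2.27, 1.93 and 2.26 and adjusted p from 0.138 to 0.195, in fits that called 15 to 30 genes in all and in which CTTN did not pass either. Leaving out CTTN library 2 or 3 kept it and gave 2.35 and 1.65, in fits that called 47.2% and 8.54% of all genes tested. The limma fits on log2(FPKM + 1) and log2(FPKM + 0.1) gave 1.17 and 1.91 with adjusted p of 0.0675 and 0.0566. An edgeR fit with the replicate number as a block gave 2.05 with adjusted p = 0.103, and it called 109 genes in all.

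TFF3, which lies close to TFF1 in the trefoil cluster of chromosome 21 (chr21:42311667-42315651), had 24.8, 33.2 and 37.4 counts in CON and 64.3, 31.3 and 88.7 in CTTN. CTTN libraries 1 and 3 exceeded the controls and CTTN library 2 lay among them. The log2 fold change was 0.95 (SE 0.39, edgeR adjusted p = 0.155). Without CTTN library 2 it was 1.26 with adjusted p = 0.00518, in the fit that called 47.2% of all genes, and without CTTN library 3 it was 0.58 with adjusted p = 0.289. The transcript ENST00000518498 took 84.9 ± 0.704% of the TFF3 count in CON and 80.3 ± 4.22% in CTTN (SD, n = 3). TFF2, the other gene of this cluster, was listed at 0 in all 6 libraries.

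XBP1 (chr22:28794555-28800597) was abundant throughout. Its counts were 26430, 24420 and 24330 in CON and 28190, 24230 and 31220 in CTTN. CTTN library 2 was the lowest of all and CTTN library 3 the highest, so the groups overlapped. The log2 fold change was 0.15 (SE 0.11, edgeR adjusted p = 0.349). Without CTTN library 2 it was 0.24 with adjusted p = 0.0445, in the fit that called 47.2% of all genes, and without CTTN library 3 it was 0.06 with adjusted p = 0.685.

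The transcript that keeps the IRE1 intron, ENST00000216037, took 90.0%, 89.2% and 91.1% of the XBP1 count in CON and 92.9%, 90.2% and 95.5% in CTTN. The spliced transcript ENST00000344347 took 1.15%, 1.40% and 1.09% in CON and 1.28%, 1.56% and 0.764% in CTTN. Its mean share was 1.22 ± 0.164% against 1.20 ± 0.405% (SD, n = 3), with an exact two-sided permutation p of 1.0. These shares are estimates over transcripts that overlap nearly everywhere, and the files give the spliced transcript a length of 1131 bases where the reference sequence has 1791, so its share depends on that model. Another transcript, ENST00000611155, was absent from the reference, so its sequence could not be examined for the intron. It took 0.468%, 0.636% and 0.000129% in CON and 0.316%, 0.459% and 0.000423% in CTTN.

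A further XBP1 transcript, ENST00000484256, is annotated as a retained intron. It took 7.01%, 6.84% and 6.35% of the count in CON and 4.19%, 5.73% and 2.91% in CTTN, and the groups did not overlap. The mean share was 6.73 ± 0.341% against 4.28 ± 1.42% (SD, n = 3), with an exact two-sided permutation p of 0.1, the smallest that 3 against 3 libraries can give, and 0.7 after adjustment over the 7 XBP1 transcripts with a mean control count above 1. Its own log2 fold change was −0.55 (SE 0.19, edgeR adjusted p = 0.767). Neither isoforms (0.0% of 58275) nor start-site groups (0.0% of 35916) had any call in edgeR, although 3638 isoforms and 3730 start-site groups had an unadjusted p under 0.05, and no other tool was run on them.

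SPDEF, an ETS-family factor of luminal and goblet cells (chr6:34537802-34556333), had 8787, 8581 and 9386 counts in CON and 10970, 10090 and 12560 in CTTN. All 3 CTTN libraries exceeded all 3 controls. The log2 fold change was 0.33 (SE 0.10), and it did not pass in edgeR (adjusted p = 0.103), but did in DESeq2, with 0.33 and adjusted p = 0.0483, where 7.57% of genes were called higher. Without CTTN library 2 the edgeR value was 0.39 with adjusted p = 0.0077, in the fit that called 47.2% of all genes. The transcript ENST00000374037 took 92.4 ± 2.91% of the SPDEF count in CON and 92.3 ± 2.24% in CTTN (SD, n = 3). The window upstream of SPDEF is the one with the forkhead match shown above.

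AGR2 (chr7:16791811-16833433) had 6362, 6065 and 5983 counts in CON and 4839, 3645 and 6128 in CTTN. CTTN libraries 1 and 2 lay under the controls and CTTN library 3 lay among them. In FPKM, which also takes in transcript length, all 3 CTTN libraries, at 98.3, 85.8 and 109, lay under the controls at 142, 129 and 133. The log2 fold change of the counts was −0.33 (SE 0.18, edgeR adjusted p = 0.227). Without CTTN library 3 it was −0.54 with adjusted p = 0.0263, in a fit that called 8.54% of all genes tested. Without CTTN library 2 it was −0.17 with adjusted p = 0.227.

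Most of the AGR2 count, 72.7 ± 1.92% in CON and 76.8 ± 5.09% in CTTN (SD, n = 3), belonged to ENST00000419304 in its annotated form of 1778 bases. The shorter ENST00000401412, of 782 bases, took 19.3 ± 1.46% and 17.4 ± 1.82%. For each of these shares the exact two-sided permutation p was 0.3. A scarce form of 1845 bases, assigned to ENST00000419304 but not identical to it, took 0.866 ± 0.0644% and 0.538 ± 0.124%, and the groups did not overlap. Its permutation p was 0.1, the smallest that 3 against 3 libraries can give, without adjustment over transcripts. The log2 fold change of this form was −1.07 (SE 0.35, edgeR adjusted p = 0.767).

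PIP (chr7:143132077-143139746) had 22, 33 and 21 fragments in CON and 8, 8 and 16 in CTTN before scaling, or 0.622, 0.786 and 0.547 against 0.226, 0.213 and 0.485 CPM. All 3 CTTN libraries lay under all 3 controls, CTTN library 3 by the least. The log2 fold change was −1.07 (SE 0.38), which did not pass in edgeR (adjusted p = 0.127). Without CTTN library 3 it was −1.57 with adjusted p = 0.0349, in the fit that called 8.54% of all genes. Its transcript, ENST00000291009, is 585 bases long and so of the same length class as TFF1, whose value had the opposite sign.

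**Figure D2:**
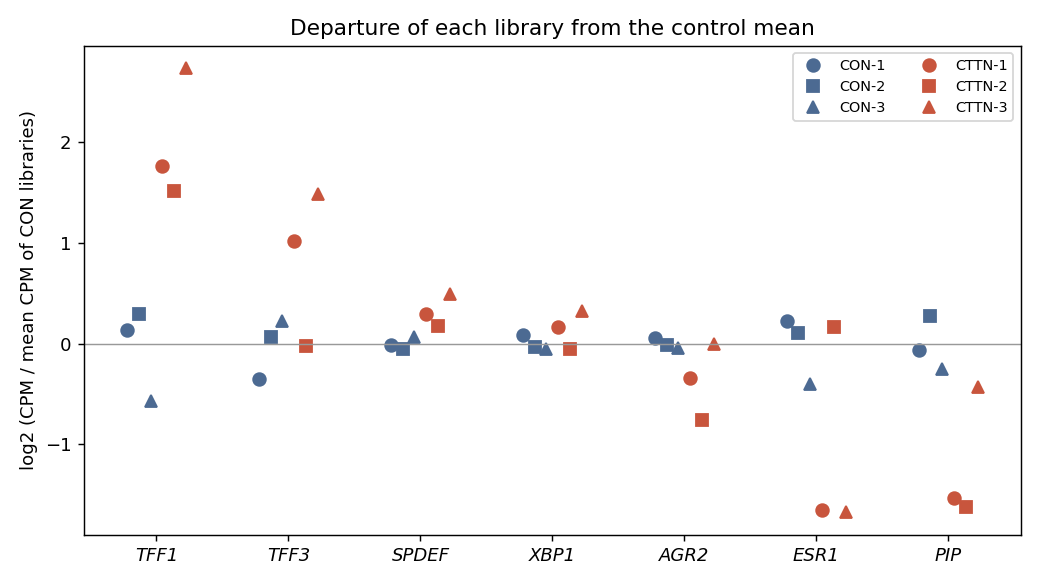
Log2 ratio of each library's CPM to the mean of the CON libraries (vertical axis) for the 7 tested genes; blue points are CON, red points CTTN, and shapes give the library number. CTTN library 2 (red square) lies among the controls for ESR1 and TFF3 and just under them for XBP1, and CTTN library 3 (red triangle) lies among them for AGR2.

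The 3 CTTN libraries did not share 1 pattern over these genes. CTTN library 3 was the highest of all 6 for TFF1, TFF3, XBP1 and SPDEF. By CPM, CTTN library 2 was the lowest of all 6 for AGR2, PIP and XBP1, but for PIP it had 8 fragments, as CTTN library 1 did. For XBP1 it was at 659.4 CPM beside 661.5 CPM in CON library 3. In FPKM its XBP1 value, 390.8, lay above those of CON libraries 2 and 3, at 387.5 and 387.9. CTTN RNA itself was highest in CTTN library 2 (37140 counts) and lowest, within that group, in CTTN library 3 (19000 counts). Over the 6 libraries, which share these differences, the Pearson r of log2 CPM was 0.94 for TFF1 with SPDEF, −0.96 for ESR1 with TFF3 and 0.85 for AGR2 with PIP, as a description only.

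Genes related to the 9 were read in 7 lists, whose counts stand beside the 2.29% of all tested genes called higher and the 1.91% called lower. Of 10 steroid and related receptors, 7 were tested and none passed in edgeR, with a median log2 fold change of −0.51. ESRRA, the estrogen-related receptor alpha gene, was the most abundant receptor of this list at 67.8 ± 4.08 FPKM against 86.4 ± 15.8, with a log2 fold change of 0.28 (edgeR adjusted p = 0.132). ESRRA was named after its values were seen.

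Of 17 estrogen receptor cofactors, all tested, TFAP2B, an AP-2 transcription factor, rose with a log2 fold change of 1.09 (SE 0.18, edgeR adjusted p = 0.0265), and the median was −0.23. Of 30 estrogen-regulated genes, 25 were tested. TFF1 rose, and CA12, a membrane carbonic anhydrase, fell from 50.4 ± 3.30 to 25.2 ± 9.25 FPKM (SD, n = 3), a log2 fold change of −0.83 (SE 0.14, edgeR adjusted p = 0.0274). The median of that list was −0.05 and CXCL12 was listed at 0 in all libraries.

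Of 25 luminal epithelial markers, 23 were tested, with 1 called higher and 1 lower. ANXA9, an annexin, rose by 0.97 on the log2 scale (SE 0.12, edgeR adjusted p = 0.0115), and SLC44A4, a choline transporter-like protein, fell by 0.72 (SE 0.13, adjusted p = 0.0331), with a median of 0.10. Of 30 apocrine and androgen-regulated genes, 25 were tested, with 2 called higher, 1 lower and a median of −0.15. These counts, too, stand beside 2.29% and 1.91% of all genes. HPGD, which degrades prostaglandins, rose by 1.89 (SE 0.36, adjusted p = 0.0380), as did TFAP2B, which is in this list too. TMPRSS2, an androgen-induced serine protease, fell by 0.51 (SE 0.09, adjusted p = 0.0265), and KLK3 and ZBTB16 were listed at 0 in all libraries.

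Of 22 XBP1 and secretory-pathway genes, all tested, CREB3L1, a transcription factor held in the endoplasmic reticulum membrane, fell from 2.34 ± 0.309 to 1.01 ± 0.143 FPKM (SD, n = 3), a log2 fold change of −1.30 (SE 0.15, edgeR adjusted p = 0.0079). The other 21 did not pass, and the median was 0.04, while 1.91% of all genes were called lower. Of 13 trefoil, anterior gradient and mucin genes, 8 were tested, of which 1 was called higher and 1 lower beside 2.29% and 1.91% of all genes. TFF1 rose, the row of the mucin gene MUC20 fell by 0.68 (SE 0.08, adjusted p = 0.0079), and the median was −0.13. The MUC20 row also carries MUC20-OT1, SDHAP2 and SMBD1P, so that its reads cannot be assigned to MUC20 alone.

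The lists were drawn up by hand and share genes with each other.

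**Figure D3:**
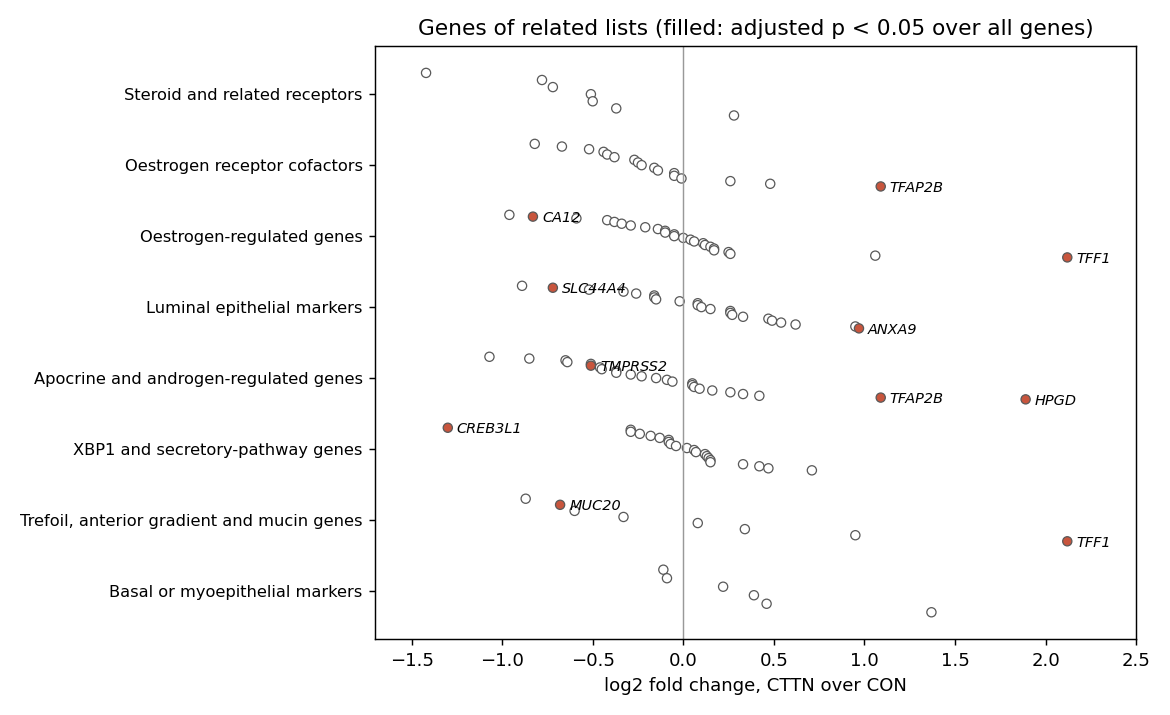
Log2 fold change of CTTN over CON (horizontal axis) of the tested genes of 8 lists (rows); filled points passed an adjusted p of 0.05 over all genes and carry their names. Most points of each list are open and lie between −1 and 1.

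Markers of other cell types were read beside these lists. Of 6 tested basal or myoepithelial markers none passed in edgeR, but the summed level of the 9 listed was 3.85 to 4.53 FPKM in CON and 5.06 to 5.47 in CTTN. TP63 was at 1.72, 1.87 and 1.82 FPKM in CON and 2.20, 2.79 and 1.96 in CTTN (log2 fold change 0.39, adjusted p = 0.123), and ACTA2 at 0.210, 0.170 and 0.165 against 0.328, 0.507 and 0.592 (1.37, adjusted p = 0.0590), and for both all 3 CTTN libraries lay above all 3 controls, as for 19.3% of all genes. The other tested basal markers were KRT5 at a log2 fold change of 0.46, VIM at 0.22, OXTR at −0.09 and MYLK at −0.11, with adjusted p from 0.371 to 0.755. KRT14 was at most 0.115 FPKM in any library, and none of the 9 was at 0 in all. Of 7 fibroblast markers, 1 was tested and did not pass, with sums of 3.53 to 4.44 FPKM in CON and 2.99 to 4.30 in CTTN that came mostly from COL1A1, while COL3A1, DCN and LUM were each at 0 in at least 4 libraries. Of 5 immune markers, PTPRC was at most 0.199 FPKM, CD3E at most 0.063 FPKM and MS4A1 was listed at 0. CD14 was at 0.321 to 0.624 FPKM over the 6 libraries, with a log2 fold change of 0.57 (edgeR adjusted p = 0.227). The row with CD68 also holds EIF4A1 and SENP3, and made up nearly all of the immune sum of 606 to 632 FPKM in CON and 620 to 856 in CTTN. Of 3 endothelial markers, CDH5 fell by 1.49 on the log2 scale (SE 0.17, edgeR adjusted p = 0.00845) and PECAM1 was at most 0.0220 FPKM. VWF, at 0.0928 to 0.166 FPKM, had a log2 fold change of −0.70 (edgeR adjusted p = 0.154). The sum of the 3 was 4.12 to 4.62 FPKM in CON and 1.56 to 2.17 in CTTN. The part of these markers in the results was not tested. The 6 markers of SKBR3 identity all failed to pass, with ERBB2, the HER2 gene, at 1675 ± 30.9 FPKM in CON and 1739 ± 82.2 in CTTN (SD, n = 3).

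The genes whose profile over the 6 libraries was most like that of each tested gene were found by the Pearson r of log2 CPM, given without a test. They were PAXBP1 (r = 0.993) and TTL (r = 0.990) for ESR1, ACTL8 and VPS37D (both 0.998 to 3 digits) for TFF1, and EIF2B1 (0.995) and POLE3 (0.994) for TFF3. For XBP1 they were GLA (0.998) and AC126474.2 (0.997), for SPDEF CARS2 (0.999) and AC116562.4 (0.998), for AGR2 CASP4 (0.995) and FAM213A (0.994), and for PIP GSTO2 (0.995) and INSIG2 (0.990). An r above 0.95 was common, with 969 genes for XBP1, 966 for SPDEF, 697 for TFF1, 372 for TFF3, 59 for AGR2, 45 for ESR1 and 33 for PIP. None of the 7 tested genes had another of the 7 as its nearest.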

How the data were processed

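Poly(A) RNA of 6 SKBR3 libraries was sequenced from a stranded TruSeq kit. The submitters' processing notes name bcl2fastq 2.20.0, Trimmomatic, STAR, Cufflinks and GRCh38, while the published methods name an older build. Gene positions in the files were those of GRCh38, which is used here. The strand setting of the counting is not given in the sources used here.

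The deposited estimated counts had been divided by the authors by 1 scale per library, a ratio deposited with them. Multiplied by it, 100.0% of the low gene values were whole within 0.01. The authors also deposited FPKM values, scaled between libraries. Control columns carried other numbers in the sample descriptions than in the tables, so they were taken as 3 libraries of the CON group, numbered as in the deposited sample table.

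Rounded counts were tested for genes, start-site groups and isoforms by quasi-likelihood in edgeR 4.0.16 (R 4.3.3) with TMM scaling and filterByExpr, and Benjamini-Hochberg adjusted p-values were called at 0.05 over all features. The authors' 1.5-fold minimum was a second rule. Scripts were tested on simulated data. CPM values used TMM library sizes. The biological coefficient of variation was estimated in each group. The precision of scarce genes is that of their fragments. Transcript shares were compared by exact permutation with SciPy 1.17.1.

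Alternatives were DESeq2 1.42.0, library totals, no filter, at least 10 counts in every library of a group, limma 3.58.1 on log2(FPKM + 1) and log2(FPKM + 0.1), counts multiplied back, the replicate number as a block, each library left out, and control columns named in the labels.

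The 9 genes and the lists were chosen with earlier results of these data known. The text names the 9 genes, CTTN, at most 4 called genes per list by size of change, those at 0, and the 2 genes nearest in profile. ESRRA, ERBB2 and single markers of other cell types were named after their values were seen. The labels call the replicates biological without naming separate cultures, so p-values measure the spread between these libraries, which may be technical. Coding-sequence tables were not used. Transcript sequences and the XBP1 exon positions came from a GENCODE reference by identifier, promoters from RefSeq.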

Additional observations from a re-analysis of the deposited data

How the results depend on the processing

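Over the 7 tested genes and 15 alternative settings, 90 of 105 fold changes kept their sign and their side of the threshold, 7 passed it newly, 8 no longer passed, and 0 changed sign. The setting with only the named control columns and the one without CON library 1 are the same fit, which these counts hold under both names. TFF1 lost its call with limma on log2(FPKM + 1) (1.17) and log2(FPKM + 0.1) (1.91), with only the control columns named in the labels (2.17, which is the fit without CON library 1), and with the replicate number as a block (2.05, adjusted p = 0.103), and passed in 7 of 15 alternatives, with adjusted p from 0.0010 to 0.195. SPDEF passed with DESeq2 (0.33). CTTN passed in 9 of 15 alternatives and lost its call under the block (1.30, adjusted p = 0.0563), with only the named columns or without CON library 1 (1.33), and without CON library 2 (1.36), CON library 3 (1.35) or CTTN library 1 (1.33). Leaving out 1 library gave log2 ranges of −1.69 to −0.48 for ESR1, 0.06 to 0.24 for XBP1, 0.24 to 0.39 for SPDEF, −0.54 to −0.17 for AGR2, 1.65 to 2.35 for TFF1, 0.58 to 1.26 for TFF3, −1.57 to −0.88 for PIP and 1.10 to 1.57 for CTTN. The limma fit on log2(FPKM + 1), which understates changes of scarce genes, gave −0.15 for ESR1 (its whole row) and −0.62 for PIP. The number of genes called, 606, was 2071 with DESeq2, 185 and 180 with limma at the pseudocounts 1 and 0.1, 462 with the 1.5-fold minimum, 109 with the replicate block and 29 with the named columns, and ran from 15 (without CON library 2) to 6953 (without CTTN library 2) with 1 library left out; other counts stayed within 1.5 times. Start-site groups had 0 calls in every setting tried. The replicate numbers did not pair the libraries: deviations of same-numbered libraries correlated at 0.035, 0.131 and −0.25, so the block shares only a number. With all 6 libraries GREB1 and PGR did not pass the filter; GREB1 ranged from −0.19 to 0.16 where it could be fitted. The cause of these changes was not tested. PGR, GREB1, TFF1, PIP and ESR1 had at most 51 fragments per library, which sets their counting precision.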
